A study of Mus musculus with 24 samples.

Results

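The genes described here form the amino acid response of the transcription factor ATF4 together with a set of cytosolic aminoacyl-tRNA synthetases, 33 genes chosen by name out of the 51912 in a count table of mouse pancreas. They comprise 7 regulators, 8 enzymes of amino acid and one-carbon metabolism, 4 amino acid transporters, 3 further ATF4 targets and 11 synthetases, which carry their older symbols (Sars, Cars, Yars) in the annotation. All 33 were found in the table and all 33 passed the filter on low counts, among 14000 genes tested. The table covers 24 mice of the inbred strain C57Bl/6J, with 1 library of whole pancreas each, in 8 groups of 3. Mice of a normal circadian condition and of a circadian disrupted condition were taken on day 1 (the early time point) and again on day 8 in females or day 9 in males (the late time point), with 3 males and 3 females per condition and time point. The labelled zeitgeber time, in hours from lights on, was 8 on day 1, 176 on day 8 and 200 on day 9, which is the same clock hour on each day. No genotype, transgene or drug is labelled for any group, and how the rhythm was disrupted is not given in the sources used here. In what follows a mouse is named by condition, time point, sex and number, as in normal early male 1.

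ATF4 is translated more when the initiation factor eIF2 is phosphorylated, which happens when uncharged tRNA activates the kinase GCN2 or when unfolded protein in the endoplasmic reticulum activates PERK. It then switches on genes that take up amino acids, make serine, asparagine, proline and cysteine, feed mitochondrial one-carbon metabolism and charge tRNAs, together with regulators such as CHOP (Ddit3) and TRIB3 that limit or redirect the response. Acinar cells, which secrete digestive enzymes and dominate pancreatic RNA, synthesise protein at a very high rate, and loss of PERK is known to damage them in mice.

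Library depth was 31325562 to 62390463 counts per mouse. Acinar markers, such as Cpa1 and Ctrb1, summed to 206500 to 260400 CPM (counts scaled to the library size) per mouse. Markers of other cells varied. The sum of 12 lymphocyte and lymph node markers, 10 of which were tested, ran from 4.50 to 53.7 CPM in normal early, 11.9 to 116 CPM in disrupted early, 0.963 to 10.3 CPM in normal late and 1.51 to 59.9 CPM in disrupted late mice. Most of this sum was Ighm, with a mean of 16.1 CPM over 24 mice (highest 82.6). The means of the other markers in it were 0.101 to 0.763 CPM. All 10 tested lymphocyte markers lay above 0 in disrupted against normal mice at both time points, with 1 passing early and 0 late. Late, 6 of them stood at an unadjusted p under 0.05, beside 2048 of all 14000 genes tested. No lymphocyte marker was at 0 throughout any of these sets. Disrupted early female 1 (116 CPM), disrupted late male 1 (59.9 CPM), normal early female 3 (53.7 CPM) and disrupted late female 1 (41.2 CPM) had sums above 40 CPM. Calls that change without the disrupted female 1 of both time points, or without all 4 of these mice, are given below for the genes described in full. Of 7 adipocyte markers, 6 had a fold change above 0 in disrupted early mice and 7 in disrupted late mice, with 0 passing the test of edgeR at either time point and 0 at an unadjusted p under 0.05. Of 5 hepatocyte markers, 3 were tested and 1 was higher in disrupted early mice, where the sum ran from 8.67 to 40.5 CPM against 7.10 to 11.7 CPM in normal early mice. All 5 endothelial markers lay above 0 early and 1 rose (4 at an unadjusted p under 0.05), with sums of 36.6 to 42.7 CPM in normal and 39.4 to 50.02 CPM in disrupted early mice. The 7 macrophage markers all lay above 0 at both time points, and the 6 stellate and fibroblast markers did early. Of these, 0 passed. Of 8 islet markers 6 lay below 0 early and 0 passed. Of 6 ductal markers 5 lay above 0 early and 1 rose (41.1 to 57.5 and 46.9 to 57.4 CPM), and of 10 acinar markers 6 did and 1 rose. The part of these cells in the results below was not tested beyond leaving out those mice. In whole tissue, fewer cells of a type and less RNA per cell cannot be told apart.

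Levels of the 33 genes spanned a wide range when divided by exon length. Nupr1, a small chromatin protein first found in the pancreas during acute pancreatitis, was the most abundant at a mean of 269.5 CPM per kilobase over 24 mice. Asns, the asparagine synthetase, followed at 51.7 CPM per kilobase, Phgdh, the first enzyme of serine synthesis, at 39.7 and Wars, the tryptophanyl-tRNA synthetase, at 34.2. Atf4 itself came next at 27.9 CPM per kilobase, above 98.2% of the genes tested. At the other end were Ddit3 at 1.23, the leucine sensor gene Sesn2 at 0.895, the pseudokinase gene Trib3 at 0.817 and the cystine transporter gene Slc7a11 at 0.388 CPM per kilobase. Neighbours in this order mostly overlapped between mice, as the ranges of Nars (the mean 14.6 CPM per kilobase) and Slc7a5 (14.4) show. The members also differed in how much mice of 1 group varied. The SD of log2 CPM within groups was 0.70 for Trib3, 0.69 for Chac1, 0.52 for Slc7a11 and 0.49 for Cth, but 0.094 for Asns, 0.095 for Phgdh and 0.097 for Sars.

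**Figure D1:**
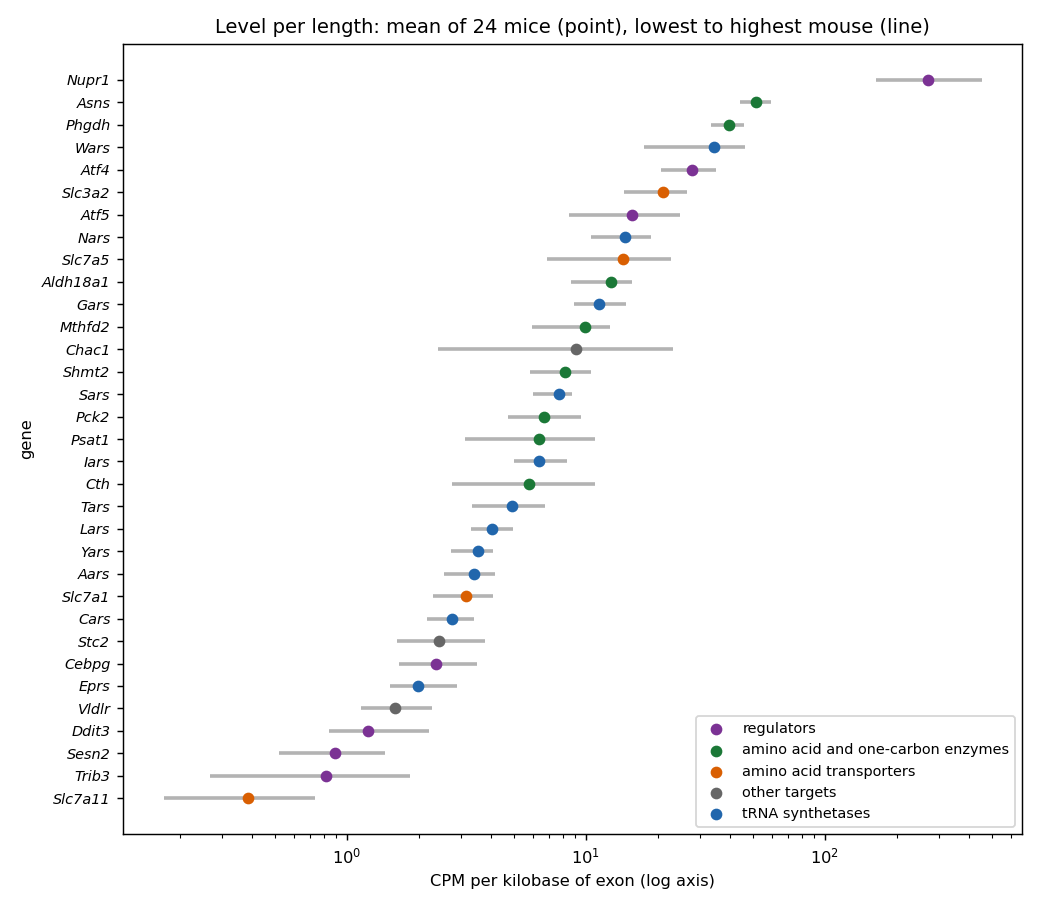
Mean level of each gene over 24 mice (points, coloured by role) and the lowest to highest mouse (grey lines), in CPM per kilobase of exon on a log axis. Nupr1 stands apart at the top with 269.5 CPM per kilobase, and Slc7a11 is lowest at 0.388; the ranges of most neighbours overlap.

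Promoters were examined because ATF4, paired with a C/EBP factor, is known to bind a composite site (the C/EBP-ATF response element) in several of these genes. RefSeq promoter windows on GRCm38.p6, 250 bases before to 50 bases after each start, were matched for 27 of the 33 genes by symbol. No window was used for Slc7a5, Cth, Cars, Lars, Nars or Wars. The motif TGATGNAA, searched on both strands, lay in a window of 12 of the 27 genes (44.4%), against 4.51% of all 27025 genes with a window. These 12 were Trib3, Asns, Chac1, Slc7a11, Pck2, Nupr1, Vldlr, Aars, Gars, Iars, Tars and Yars. The E-box CACGTG, which reads the same on both strands and is bound by the clock pair CLOCK and BMAL1 as well as by other factors, lay in the window of 5 of the 27 (18.5%), namely Aldh18a1, Nupr1, Aars, Iars and Tars, against 8.09% of all genes. The 2 motifs did not overlap in the 4 genes that held both. The 250 bases upstream of the start are shown for 2 genes with a fold change that passed a test below, Pck2 and Chac1, for Asns as the classical ATF4 target, and for Slc7a11, which holds the motif in both orientations. Capitals mark the motif, which appears as its reverse complement where it lies on the other strand, and each sequence runs 5′ to 3′ on the strand of the gene. The windows are chr6:7693210-7693459 (minus strand) for Asns, chr2:119350992-119351241 (plus) for Chac1, chr14:55540016-55540265 (plus) for Pck2 and chr3:50443614-50443863 (minus) for Slc7a11.
Asns: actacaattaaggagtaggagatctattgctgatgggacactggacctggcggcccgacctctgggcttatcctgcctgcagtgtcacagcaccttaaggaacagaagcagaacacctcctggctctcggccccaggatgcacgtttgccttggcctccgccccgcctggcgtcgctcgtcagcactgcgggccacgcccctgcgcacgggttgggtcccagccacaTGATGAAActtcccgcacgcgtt
Chac1: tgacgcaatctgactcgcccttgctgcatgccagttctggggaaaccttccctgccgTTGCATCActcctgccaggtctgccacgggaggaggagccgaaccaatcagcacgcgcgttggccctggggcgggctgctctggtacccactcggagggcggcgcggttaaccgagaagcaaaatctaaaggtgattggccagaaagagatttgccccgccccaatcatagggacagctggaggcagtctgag
Pck2: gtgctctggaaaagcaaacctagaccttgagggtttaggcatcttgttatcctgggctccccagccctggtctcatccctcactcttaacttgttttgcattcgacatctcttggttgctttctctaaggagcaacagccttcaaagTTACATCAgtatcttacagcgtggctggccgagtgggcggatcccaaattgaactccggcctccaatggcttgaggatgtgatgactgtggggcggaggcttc
Slc7a11: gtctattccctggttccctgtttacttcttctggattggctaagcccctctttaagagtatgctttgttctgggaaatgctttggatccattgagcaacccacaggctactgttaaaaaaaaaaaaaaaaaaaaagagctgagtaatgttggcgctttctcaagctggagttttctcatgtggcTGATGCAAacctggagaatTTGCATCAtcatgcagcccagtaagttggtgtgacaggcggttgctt
With the base of the start counted as 1 and the base before it as -1, the motif began at -23 in Asns, -193 in Chac1, -103 in Pck2, and -66 and -47 in Slc7a11. In Yars, on chromosome 4, the motif TGATGCAA began at position 4. The windows of Sars, Mthfd2, Atf4 and Ddit3 did not hold these letters. A match is a description of the sequence and not a measured site.

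The first comparison asked how the condition affected these genes on day 1. In disrupted early mice the module lay lower than in normal early mice: 30 of its 33 genes had a log2 fold change below 0 (90.9%, against 48.9% of all genes tested), with a median of -0.225 against 0.004 for all genes. The genes share the same mice and often vary together, so direction counts here and below are not counts of independent observations. Of the 33, 4 fell, an import gene (Slc7a5), a pair of mitochondrial enzyme genes (Mthfd2 and Pck2) and a synthetase gene (Sars), while 0 rose. Among all genes tested 2.47% fell and 2.09% rose, by edgeR's quasi-likelihood test with Benjamini-Hochberg adjustment over 14000 genes. At an unadjusted p under 0.05 stood 16 of the 33, beside 2482 of all 14000 genes tested, and DESeq2 called 5. Shares and counts over all genes, here and below, are those of the main edgeR fit and not of alternative fits. The 6 disrupted and 6 normal mice overlapped for all 33 genes, where 1.14% of all genes were lower and 1.17% higher without overlap. The members and lists were chosen by name, but with earlier results of these data known.

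Among the 7 regulators, 6 had a fold change below 0 (median -0.245) and 0 passed the test, with 4 at an unadjusted p under 0.05. Atf4 (chr15:80255184-80257541, GRCm38, plus strand) had 60, 67.6 and 78.8 CPM in the lowest, median and highest of 6 normal early mice, and 48.8, 59.9 and 65.8 CPM in the disrupted early mice. The disrupted values sat in the lower part of the range, and both groups overlapped between 60 and 65.8 CPM. The log2 fold change was -0.215 ± 0.072 (SE), with an adjusted p of 0.0936. Ddit3 (chr10:127290774-127296288, plus strand), which encodes CHOP, a factor tied to cell death under lasting stress, had 2.03, 2.53 and 3.80 CPM in normal early and 1.45, 1.89 and 2.61 CPM in disrupted early mice. Its log2 fold change was -0.43 ± 0.14, with an adjusted p of 0.0861, and the groups overlapped. Exons of Ddit3 overlap those of Mars and Gm4189 on the opposite strand, and without the strand setting of the counting their reads cannot be told apart. Without the filter on low counts both genes passed (adjusted p = 0.0285 for Atf4 and 0.0439 for Ddit3). Atf4 also passed without disrupted early female 3 (0.0262) and Ddit3 without normal early male 3 (0.0482). Trib3, which binds ATF4 and limits its activity, had the lowest log2 fold change of the module at -1.14 ± 0.41, on levels of 0.908, 2.21 and 3.46 CPM in normal early and 0.569, 0.844 and 2.59 CPM in disrupted early mice (adjusted p = 0.136). Cebpg, a partner of ATF4 on DNA, stood at -0.36 ± 0.12 (adjusted p = 0.102), and Nupr1, at 0.092 ± 0.165, was the regulator above 0.

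Of the 8 enzymes, 2 fell and 6 had a fold change below 0 (median -0.265). Mthfd2 (chr6:83305691-83325908, minus strand), a mitochondrial enzyme that oxidises one-carbon units on folate, had 30.1, 36.8 and 42.8 CPM in normal early and 20.8, 25.2 and 32.1 CPM in disrupted early mice. The lowest normal mouse lay below only the highest disrupted mouse, so the overlap was narrow. Mthfd2 fell by 0.495 ± 0.107 on the log2 scale, a level 0.71 times the normal one (adjusted p = 0.00915), and it passed in all 24 fits that left out 1 mouse each. Pck2 (chr14:55540266-55551242, plus strand), the mitochondrial enzyme that makes phosphoenolpyruvate from oxaloacetate, had 51.2, 60.3 and 74.2 CPM in normal early and 37.0, 48.6 and 57.4 CPM in disrupted early mice. Pck2 fell by 0.38 ± 0.097 on the log2 scale (adjusted p = 0.0259), with the 3 disrupted females lowest, and its exons overlap those of Gm10876 on the opposite strand. The call of Pck2 was lost without normal early male 1, male 2, female 1 or female 2, or disrupted early male 3, female 2 or female 3 (adjusted p 0.0503 to 0.0777). Asns (chr6:7675169-7693254, minus strand) had 125, 146 and 161 CPM in normal early and 120.4, 132 and 143 CPM in disrupted early mice, with wide overlap, a log2 fold change of -0.128 ± 0.056 and an adjusted p of 0.222. Phgdh (0.026 ± 0.056) and Aldh18a1, the first enzyme of proline synthesis (0.021 ± 0.088), were the enzymes above 0. Psat1, which follows Phgdh in serine synthesis, had -0.24 ± 0.18, Shmt2, the mitochondrial serine hydroxymethyltransferase, -0.29 ± 0.12, and Cth, which makes cysteine from cystathionine, -0.60 ± 0.27, with adjusted p values of 0.543, 0.212 and 0.268.

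All 4 transporters had a fold change below 0 (median -0.456), and 1 fell. Slc7a5 (chr8:121881150-121907694, minus strand) encodes LAT1, which imports leucine and other large neutral amino acids. It had 47.5, 61.0 and 75.5 CPM in normal early and 25.6, 32.1 and 48.1 CPM in disrupted early mice. A single disrupted mouse, male 2 at 48.1 CPM, lay above the lowest normal mouse, female 3 at 47.5 CPM. Slc7a5 fell by 0.865 ± 0.210 on the log2 scale to 0.549 times the normal level (adjusted p = 0.0255). The call was lost without normal early male 1, female 1 or female 2, or disrupted early male 1, male 3, female 1 or female 2 (adjusted p 0.0508 to 0.0677), without disrupted early female 1 and disrupted late female 1 together (log2 fold change -0.87, adjusted p = 0.0606) and without all 4 lymphocyte-rich mice (-0.95, 0.0747). Slc3a2, the partner subunit of LAT1, had -0.17 ± 0.10, Slc7a11, the cystine and glutamate exchanger, -0.75 ± 0.29, and Slc7a1, the importer of arginine and lysine, -0.12 ± 0.12 (adjusted p 0.423, 0.183 and 0.668).

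The 3 further targets all lay below 0 (median -0.555) and 0 passed, with 2 at an unadjusted p under 0.05. Chac1 (chr2:119351229-119354381, plus strand), an enzyme that breaks down glutathione, had 7.81, 11.0 and 25.4 CPM in normal early and 3.96, 7.72 and 13.9 CPM in disrupted early mice. The disrupted mice formed a low trio (disrupted early male 3, female 1 and female 2, at 4.05, 3.96 and 4.42 CPM) and a trio within the normal range. Its log2 fold change of -0.75 ± 0.39 had an adjusted p of 0.334. Stc2, a secreted stanniocalcin, had -0.56 ± 0.20 (adjusted p = 0.152) and Vldlr, a lipoprotein receptor, -0.36 ± 0.11 (adjusted p = 0.0625). Vldlr passed with DESeq2, with only the early mice in the fit, and without 2 or 4 lymphocyte-rich mice.

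All 11 synthetases had a fold change below 0, within a narrow band (median -0.152, lowest -0.25). Sars (chr3:108424865-108445209, minus strand), which charges tRNA with serine, had 37.5, 43.2 and 44.5 CPM in normal early and 31, 35.2 and 39.5 CPM in disrupted early mice. Normal early female 3 lay below disrupted early males 1 and 2, while the other 5 normal mice lay above all 6 disrupted ones. Sars fell by 0.25 ± 0.058 on the log2 scale, to 0.839 times the normal level (adjusted p = 0.00965), and it passed in all 24 fits that left out 1 mouse each. Eprs, which charges glutamate and proline, stood at -0.25 ± 0.11 (adjusted p = 0.247). Yars (chr4:129189760-129219607, plus strand), for tyrosine, had 17.0, 22.2 and 23.6 CPM in normal early and 16.2, 19.1 and 21.99 CPM in disrupted early mice (log2 fold change -0.152 ± 0.070, adjusted p = 0.251). Cars (chr7:143557230-143600090, minus strand), for cysteine, had 14.5, 18.1 and 19.4 CPM against 14.3, 17.1 and 19.2 CPM (-0.087 ± 0.074, 0.594). For Cars 1 normal mouse lay above and 1 disrupted mouse below the shared range, while for Yars 3 normal mice lay above every disrupted one and 1 disrupted mouse below every normal one. Both share exon sequence with a gene on the opposite strand, C77080 for Yars and Gm15580 for Cars.

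**Figure D2:**
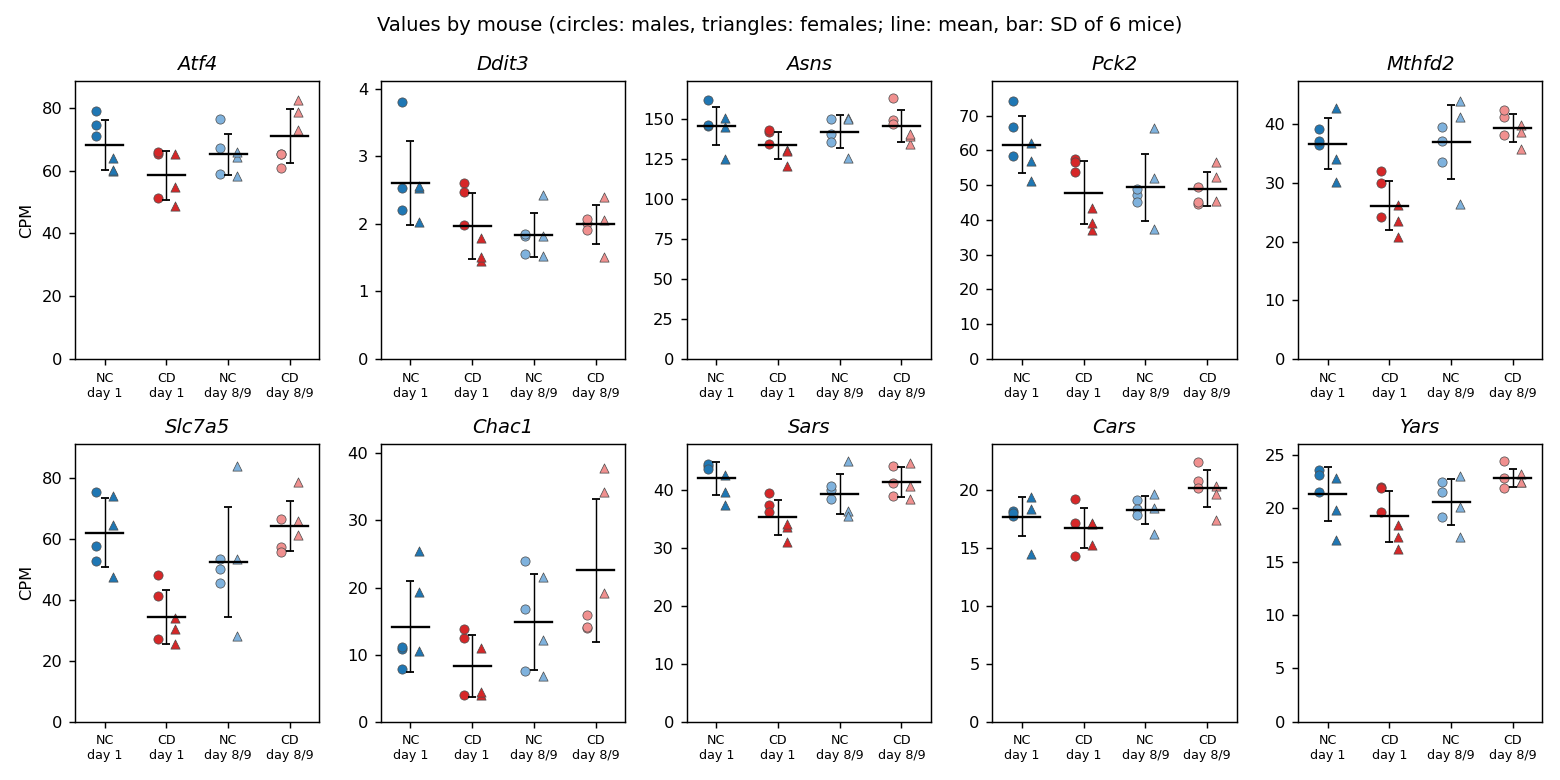
Level of the 10 genes described in full, in CPM from 0, in each mouse (circles, males; triangles, females), with the mean (line) and SD (bar) of 6 mice; NC is the normal circadian and CD the circadian disrupted condition. Slc7a5 and Mthfd2 of disrupted mice lie low on day 1 (25.6 to 48.1 and 20.8 to 32.1 CPM) and within or near the normal range on day 8 or 9.

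The number of calls on day 1 moved with single mice. It was 2 (Mthfd2 and Sars) without normal early male 1, female 1 or female 2 or without disrupted early male 3 or female 2. It was 7 without normal early female 3, whose lymphocyte marker sum was 53.7 CPM and adipocyte sum 39.2 CPM, when Slc7a11, Vldlr and Stc2 also passed. Within males, from the same fit, the log2 fold changes of Slc7a5, Pck2, Mthfd2 and Sars were -0.68, -0.25, -0.39 and -0.23, and within females -1.05, -0.51, -0.60 and -0.28. Within 1 sex (3 against 3 mice) 0 of the 33 genes passed edgeR's test in males and 0 in females, where 0.664% and 0.843% of all genes fell. At an unadjusted p under 0.05 stood 6 in males and 10 in females, beside 1619 and 1855 of all 14000 genes. The fold change of the module lay below 0 for 28 genes in males and 31 in females.

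At the late time point, the same comparison asked whether the difference was still there. The module lay slightly to the other side: 25 of 33 genes had a log2 fold change above 0 in disrupted late mice (75.8%), with a median of 0.10 against -0.002 for all genes. By edgeR 0 genes of the module passed in either direction, where 1.35% of all genes did, and DESeq2 called 1 (Nupr1). At an unadjusted p under 0.05 stood 5 of the 33, a share near that of all genes (2048 of 14000). Slc7a5 had 28.03, 51.6 and 83.9 CPM in normal late and 55.6, 63.6 and 78.5 CPM in disrupted late mice, and the disrupted values lay inside the normal range (0.29 ± 0.21, adjusted p = 0.544). Mthfd2 had 26.3, 38.3 and 43.9 CPM against 35.7, 39.2 and 42.3 CPM, again inside it (0.089 ± 0.107, 0.747). Sars had 35.6, 39.3 and 45.0 CPM against 38.5, 41.0 and 44.6 CPM (0.072 ± 0.058, 0.598). Pck2 had 37.3, 48.0 and 66.3 CPM against 44.7, 47.4 and 56.6 CPM (-0.014 ± 0.098, 0.968).

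Other late values followed the same pattern of overlap. Atf4 had 58.3, 65.2 and 76.3 CPM in normal late and 60.8, 69.1 and 82.6 CPM in disrupted late mice (0.115 ± 0.072, adjusted p = 0.475). Ddit3 had 1.52, 1.82 and 2.43 CPM against 1.51, 2.03 and 2.40 CPM (0.13 ± 0.15, 0.725), and Asns 125, 145 and 150.5 CPM against 134, 143 and 163 CPM (0.034 ± 0.056, 0.826). Chac1 had 6.84, 14.5 and 23.9 CPM against 14.0, 17.5 and 37.8 CPM (0.52 ± 0.38, 0.553). For Chac1 the lowest disrupted late mouse lay near the median normal one. Of the synthetases 10 of 11 lay above 0 and Wars below it (-0.29 ± 0.12, adjusted p = 0.279), and Nupr1 had the lowest value of the module (-0.55 ± 0.17, adjusted p = 0.113). A p above the threshold does not show that the conditions were alike.

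The difference between the late and the early effect, tested as 1 contrast in the same fit, was above 0 for 29 of the 33 genes, with a median of 0.33 (all genes -0.002). It passed for 3 genes, all with a higher value late, where 2.33% of all genes passed in that direction. For Slc7a5 the difference was 1.16 ± 0.30 on the log2 scale (adjusted p = 0.0303), for Mthfd2 0.58 ± 0.15 (0.0268) and for Sars 0.32 ± 0.082 (0.0184). The value for Atf4, 0.33 ± 0.10, had an adjusted p of 0.0615, but it passed without the filter on low counts (0.00922), with DESeq2 (0.0372) and without disrupted early male 2 (0.0449), disrupted early female 3 (0.0178), normal late male 1 (0.0281) or disrupted late female 1 (0.0474). Without the filter Yars passed (0.0484) and Mthfd2 did not (0.0584). The value for Pck2 was 0.37 ± 0.14, with an adjusted p of 0.146. This contrast uses the same 24 mice as the 2 condition effects and is no independent evidence of either. Sars passed in all 24 fits that left out 1 mouse. Mthfd2 did not without normal early male 1 or female 1, disrupted early male 3 or female 2, or normal late male 2 (adjusted p 0.0503 to 0.0528), when 1 gene passed. Slc7a5 did not in 11 fits (adjusted p 0.0505 to 0.0619), those without normal early male 1, female 1 or female 2, disrupted early male 3, female 1 or female 2, normal late male 2, male 3 or female 1, or disrupted late male 2 or female 1. It did not either without disrupted early female 1 and disrupted late female 1 together (1.11, 0.0759), when Ddit3 did (0.69, 0.0493), or without all 4 lymphocyte-rich mice (1.201, 0.0951). Within males 0 genes of the module passed for this difference and within females 0, where 0.571% and 1.01% of all genes were higher. At an unadjusted p under 0.05 stood 9 in males and 11 in females, beside 1734 and 1912 of all 14000 genes. Without normal early female 3 the count was 5, with Slc7a11 and Yars added, and without normal late female 3 it was 6, with Pck2, Eprs and Yars added.

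**Figure D3:**
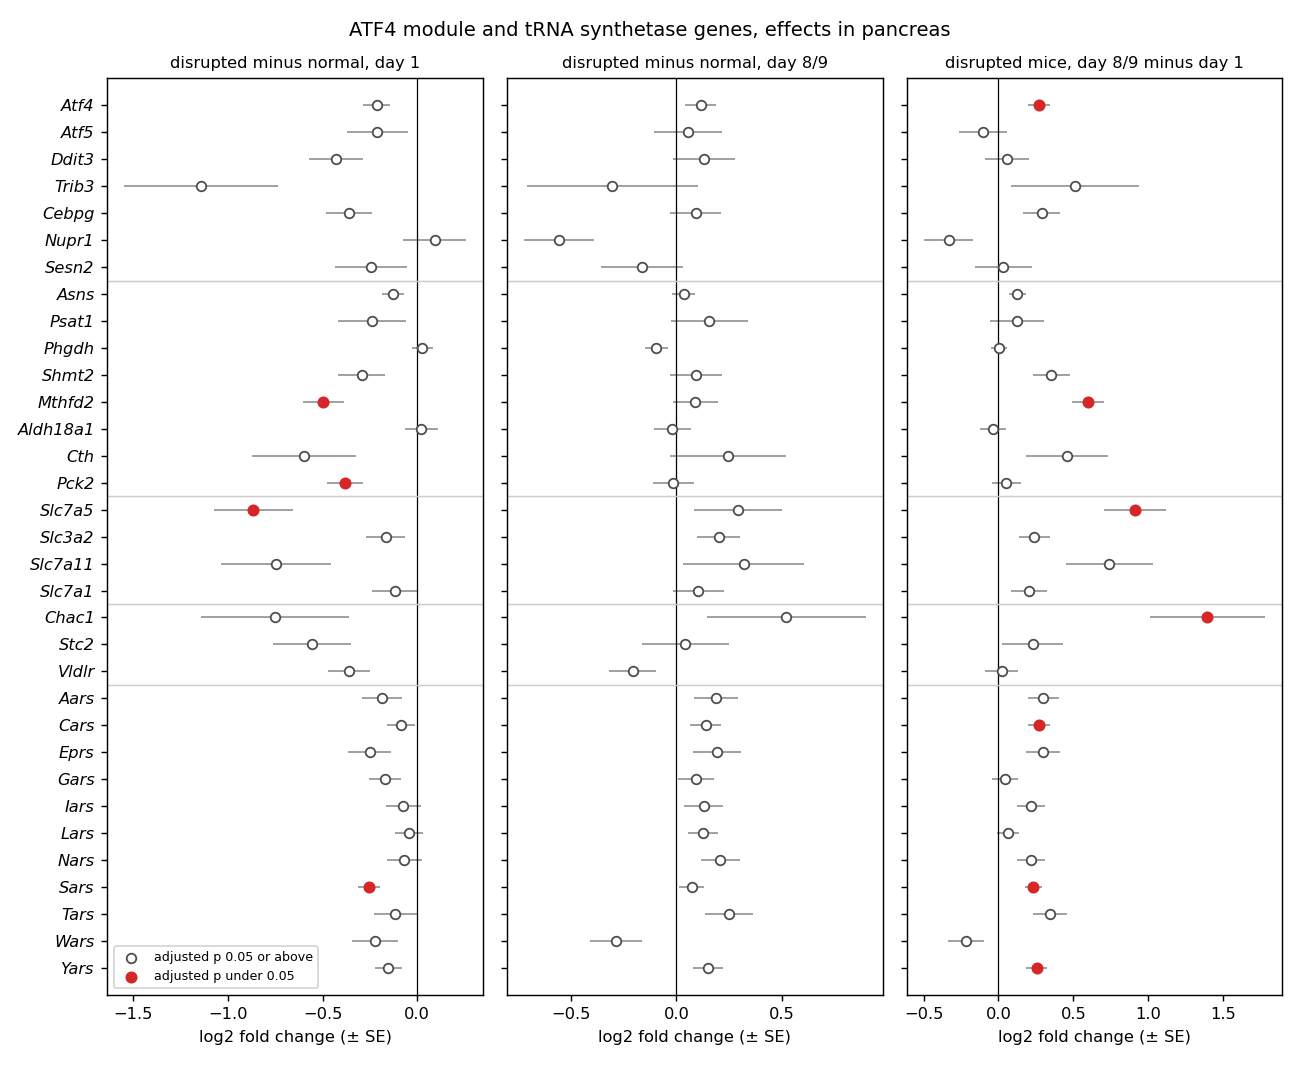
Log2 fold change ± SE of the 33 genes, by role from regulators (top) to synthetases (bottom), for disrupted minus normal mice on day 1, the same on day 8 or 9, and late minus early within disrupted mice; filled red points have an adjusted p under 0.05. On day 1 30 points lie left of 0, and in the other panels 25 and 29 lie right of it.

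The values of the disrupted mice on their own showed the change between the time points. Late against early, 29 of 33 genes lay above 0 (87.9%), with a median of 0.229 against -0.012 for all genes. Of the 33, 7 rose and 0 fell, where 7.36% of all genes rose and 6.55% fell. The 7 were Atf4, Chac1, Slc7a5, Mthfd2 and the synthetase genes Cars, Sars and Yars. For 4 genes, Chac1, Shmt2, Slc7a5 and Mthfd2, every disrupted late mouse was above every disrupted early one, as was so for 2.74% of all genes. The disrupted early mice also enter the day 1 comparison, so these values and the early ones are not independent.

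Mthfd2, at 20.8 to 32.1 CPM early and 35.7 to 42.3 CPM late, rose by 0.60 ± 0.11 on the log2 scale, or 1.51-fold (adjusted p = 6.90e-04). Slc7a5, at 25.6 to 48.1 CPM early and 55.6 to 78.5 CPM late, rose by 0.91 ± 0.21, or 1.88-fold (0.00772). Chac1, at 3.96 to 13.9 CPM early and 14.0 to 37.8 CPM late, rose by 1.40 ± 0.39, or 2.63-fold (0.0236). Chac1 was highest in disrupted late females 2 and 3, at 37.8 and 34.2 CPM, and within a sex the rise was 2.23 in females and 0.57 in males on the log2 scale. Shmt2, the enzyme that feeds Mthfd2 with one-carbon units, had 18.4, 21.8 and 24.6 CPM early and 26.2, 27.0 and 32.7 CPM late, a log2 difference of 0.35 ± 0.12 (adjusted p = 0.0617). Exons of Shmt2 overlap those of Ndufa4l2 on the opposite strand.

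Atf4 rose by 0.27 ± 0.072 on the log2 scale (adjusted p = 0.0119), with 48.8 to 65.8 CPM early and 60.8 to 82.6 CPM late, and the 3 disrupted late females were highest. Within males its log2 fold change was 0.071 (adjusted p = 0.760). Its means were 60.8 CPM early and 63.8 CPM late in males, and 56.2 and 78.0 CPM in females. The synthetase genes rose by smaller steps. Sars rose by 0.23 ± 0.058 (0.00745), Yars, with 21.9, 22.6 and 24.4 CPM late, by 0.26 ± 0.070 (0.0146), and Cars, with 17.4, 20.2 and 22.4 CPM late, by 0.27 ± 0.074 (0.0147). In each of these 3 the lowest late mice overlapped the highest early ones. Tars (0.34 ± 0.11, adjusted p = 0.0507) and Aars (0.30 ± 0.10, 0.0586) lay just outside the threshold. Asns (0.126 ± 0.056, 0.137), Ddit3 (0.057 ± 0.144, 0.842) and Pck2 (0.051 ± 0.097, 0.783) did not pass, so Pck2, which fell on day 1, showed no called difference between the time points.

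The calls of Atf4, Slc7a5, Mthfd2, Sars and Yars remained in all 24 fits that left out 1 mouse. That of Cars was lost without disrupted early male 3 (adjusted p = 0.0554), and that of Chac1 without disrupted early male 3, female 1 or female 2 or disrupted late female 2 or female 3 (0.0507 to 0.0626). Without disrupted early female 1 and disrupted late female 1 together Yars did not pass (0.236, 0.0504), and without all 4 lymphocyte-rich mice neither Chac1 (1.41, 0.0674) nor Slc7a5 (0.88, 0.0580) did. The count was 11 without normal early female 3 and 12 without disrupted early female 3. Within females 6 of the 33 rose, the named genes other than Cars, where 5.31% of all genes did, and within males 0 did, where 3.6% did. In males 9 stood at an unadjusted p under 0.05, beside 2820 of all 14000 genes. Markers of several other cells lay lower late against early in disrupted mice. All 5 endothelial markers lay below 0 and 2 fell (sums of 39.4 to 50.02 CPM early and 36.7 to 38.3 CPM late), and all 6 stellate and fibroblast markers lay below 0 and 1 fell (150.0 to 235 and 130 to 186 CPM). Of the hepatocyte markers tested 2 of 3 fell (8.67 to 40.5 and 6.02 to 12.9 CPM), with 2 of the 5 markers at 0 in all disrupted late mice, and of the ductal markers 2 of 6 (46.9 to 57.4 and 37.7 to 52.9 CPM). The lymphocyte and adipocyte markers lay below 0 in 10 of 10 and 7 of 7, the macrophage markers in 6 of 7, and 0 of them passed. At an unadjusted p under 0.05 stood 1, 0 and 2 of these, beside 3889 of all 14000 genes. Of 10 acinar markers 1 rose. The part of these cells was not tested.

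In normal mice the change between the time points was small and to the other side. Of 33 genes 26 lay below 0 (median -0.092, against 0.000 for all genes). By edgeR 0 genes of the module passed, where 0.843% of all genes did, and DESeq2 called 1 (Pck2). At an unadjusted p under 0.05 stood 5 of the 33, a share near that of all genes (1909 of 14000). Mthfd2 stood at 0.013 ± 0.107 on the log2 scale (adjusted p = 0.976), Slc7a5 of -0.25 ± 0.21 (0.650), Sars of -0.092 ± 0.058 (0.508) and Atf4 of -0.058 ± 0.072 (0.781). Ddit3, at -0.50 ± 0.14 (0.0921), and Pck2, at -0.32 ± 0.097 (0.125), lay furthest below 0 among the 10 genes described in full, and Ddit3 passed without the filter on low counts (0.0263).

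Sex entered the design as 3 mice in each group. On day 1, males had higher values than females for 30 of 33 genes (90.9%), with a median log2 difference of 0.198 against 0.003 for all genes. By edgeR 0 genes of the module passed, where 0.886% of all genes did, and DESeq2 called 2 (Pck2 and Nars). At an unadjusted p under 0.05 stood 17 of the 33, beside 2253 of all 14000 genes. The values were 0.36 ± 0.097 for Pck2 (adjusted p = 0.0749), 0.24 ± 0.070 for Yars (0.0855) and 0.32 ± 0.092 for Nars (0.0908). The count was 1 or 2 when 1 of 5 mice was left out: Pck2 and Nars without normal early male 3, Yars without normal early female 1, Nars without disrupted early female 3, and Pck2 without normal late female 2 or 3. Markers of other cells differed too. Lymphocyte markers lay lower in males in 10 of 10 (median -1.64, 5 at an unadjusted p under 0.05), macrophage markers in 7 of 7 (4), adipocyte markers in 7 of 7 (1), islet markers in 7 of 8 (3), ductal markers in 5 of 6 (3) and stellate and fibroblast markers in 6 of 6 (2, of which 1 passed the adjusted test). Acinar markers lay higher in males, as the module did, in 8 of 10 (median 0.118, 6 at an unadjusted p under 0.05). Their part was not tested. A difference of the condition effect between the sexes passed for 0 of 33 genes early (0 by DESeq2, 0% of all genes) and 0 late (0 by DESeq2, 0.0286% of all genes). At an unadjusted p under 0.05 stood 1 early and 2 late, beside 784 and 904 of all 14000 genes. Late, sex and day of sampling go together and cannot be told apart.

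The genes of the module moved together from mouse to mouse within several groups, but not in all. Of the 3 normal late females, female 2 was lowest for 31 of the 33 genes and female 3 highest for 29, where each was lowest or highest for 33.6% and 32.7% of all genes. Normal early female 3 was lowest for 30 genes (36.5% of all genes) and disrupted early male 3 likewise for 30 (32.7%). Normal early male 1 and normal early female 1 were each highest for 28, and normal late male 1 for 27. By contrast, disrupted late females 1, 2 and 3 were highest for 13, 7 and 13 genes and lowest for 14, 8 and 11. Each was highest or lowest for 31.2% to 35.6% of all genes. The mean over the 33 genes of log2 CPM, each gene centred on its mean over 24 mice, ran from -0.28 to 0.35 in normal early, -0.43 to 0.14 in disrupted early, -0.37 to 0.32 in normal late and 0.027 to 0.13 in disrupted late mice. Disrupted late mice had the smallest spread of this mean, with an SD of 0.042 against 0.222 to 0.243 in the other sets of 6. By role, their SD was 0.206 for regulators, near the lowest of the other sets (0.214 to 0.335). It was 0.205 for other targets (0.332 to 0.437 in the other sets) and 0.119 for enzymes (0.205 to 0.26). For transporters it was 0.099 (0.284 to 0.323) and for synthetases 0.09 (0.131 to 0.185). Their regulators lay at -0.283 to -0.179 in males and 0.119 to 0.178 in females. Their enzymes lay at 0.044 to 0.227 in males and -0.055 to 0.034 in females. The part of these opposite sex differences in the small spread of the mean was not tested. The lower early mean of the disrupted mice came with values inside the range of the normal ones for 2 males (0.039 and 0.14) and female 3 (-0.19) and below it for male 3 and females 1 and 2 (-0.29, -0.33 and -0.43).

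**Figure D4:**
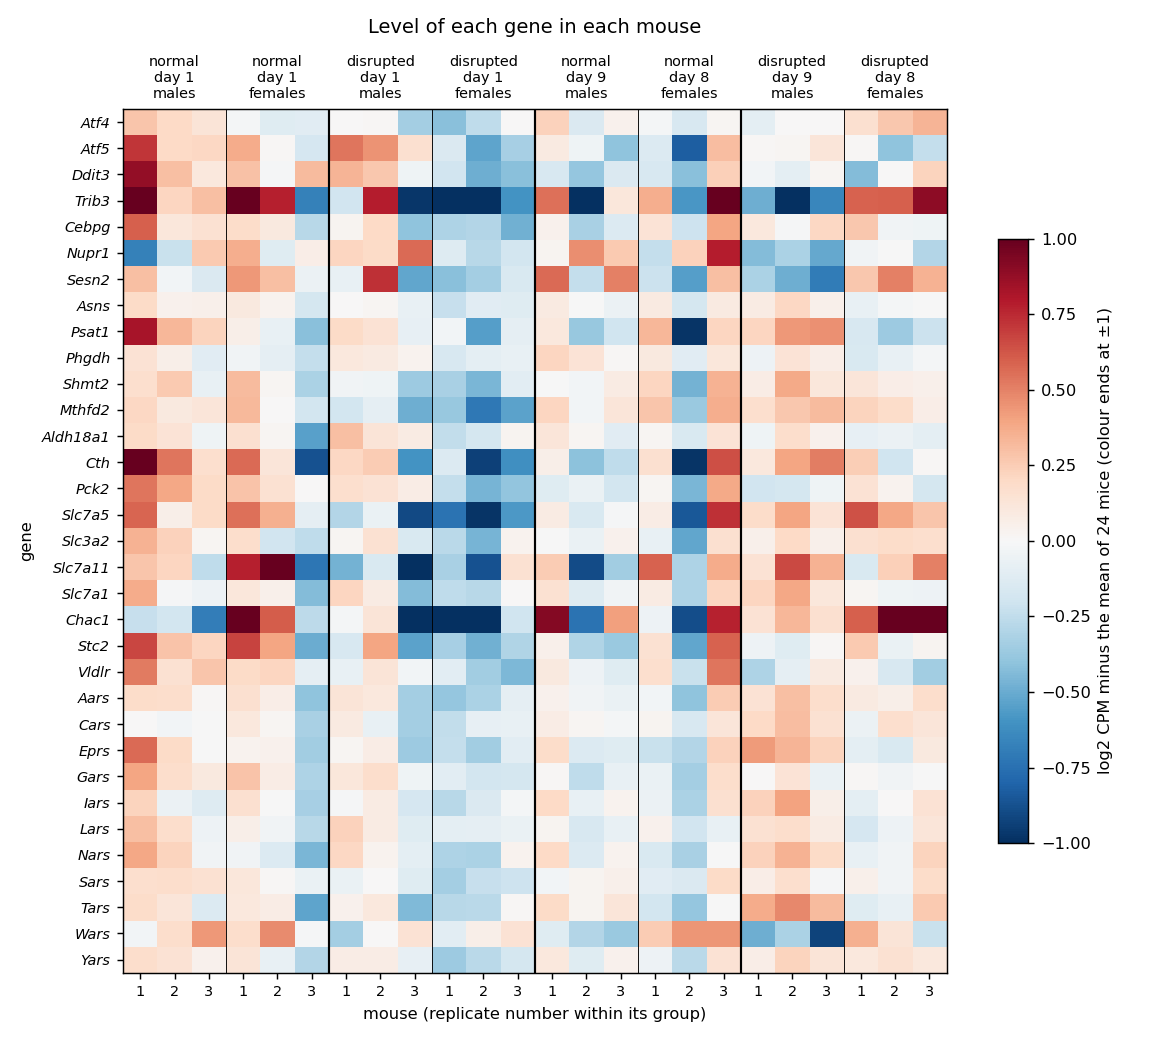
Level of each of the 33 genes (rows) in each of 24 mice (columns, by group), as log2 CPM minus the mean of 24 mice, with colour ending at -1 and 1. Several columns are mostly red or blue, as in normal late female 2 (lowest in its group for 31 genes) and female 3 (highest for 29).

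Other genes of the pathway, from lists of names, were set beside the module. Their counts are to be read against all genes tested, of which 2.47% fell on day 1, 7.36% rose and 6.55% fell late against early in disrupted mice, and 2.33% were higher for the difference of the effects. Of 12 other cytosolic synthetase genes and scaffold genes of the synthetase complex, 11 lay below 0 on day 1 (median -0.195) and 3 fell: Vars, for valine (-0.50 ± 0.076, adjusted p = 1.12e-04), Dars, for aspartate (-0.32 ± 0.083, 0.0257), and Mars, for methionine (-0.22 ± 0.062, 0.0408), whose exons overlap those of Ddit3. Late against early in disrupted mice, 4 of the 12 rose, Vars (0.56 ± 0.075, 8.93e-06), Mars (0.23 ± 0.062, 0.0133) and the scaffold or associated genes Eef1e1 (0.63 ± 0.17, 0.0114) and Aimp1 (0.21 ± 0.068, 0.0418). The difference between the early and late effects passed for Vars (0.65 ± 0.11, 2.74e-04) and Eef1e1 (0.90 ± 0.24, 0.0237). Of 16 mitochondrial synthetase genes, which charge tRNAs inside mitochondria, edgeR called 0 early, 0 late and 0 late against early in disrupted mice, with medians of -0.064, -0.026 and -0.010. At an unadjusted p under 0.05 stood 2, 3 and 3 of the 16, beside 2482, 2048 and 3889 of all 14000 genes. These lists were not tested against each other.

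Of 24 further genes reported as ATF4 targets, 23 were tested, and Gdf15 was not. On day 1, 19 lay below 0 (median -0.234) and 3 fell, Gpt2, the mitochondrial alanine aminotransferase (-0.60 ± 0.11, adjusted p = 0.00123), Gtpbp2, a GTP-binding protein (-0.32 ± 0.088, 0.0367), and Slc38a2, an importer of small neutral amino acids (-0.29 ± 0.082, 0.0430). In disrupted mice, late against early, 10 rose and 1 fell. The 4 with the smallest p among the 10 were Gpt2 (0.78 ± 0.10, 1.98e-05), the transcription factor gene Cebpb (1.26 ± 0.27, 0.00190), Slc38a2 (0.36 ± 0.082, 0.00412) and Eif4ebp1, an inhibitor of cap-dependent translation (0.28 ± 0.071, 0.00931). In normal mice late against early, 0 of the 23 passed and 13 lay above 0 (median 0.019, highest log2 fold change 1.167). Within normal males 3 of the 23 rose (13%), where 1.38% of all genes did. The difference between the effects passed for Gpt2 alone (0.59 ± 0.15, 0.0206).

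Upstream of ATF4, 17 genes for the eIF2 kinases, eIF2, its exchange factor and its phosphatase were tested. On day 1, 13 lay below 0 with a median of -0.079, and 2 fell, both regulatory subunits that direct the phosphatase to eIF2. Ppp1r15b, the constitutive one, fell by 0.33 ± 0.056 on the log2 scale (adjusted p = 4.82e-04), and Ppp1r15a, the stress-induced one and itself an ATF4 target, by 0.38 ± 0.075 (0.00250). Of the 4 genes above 0, Eif2ak3, which encodes PERK, was highest (0.335 ± 0.102, 0.0644). Late against early in disrupted mice, 5 rose and 1 fell, the kinase gene Eif2ak2 (-0.445 ± 0.108, 0.00638). Ppp1r15b rose by 0.50 ± 0.056 (7.24e-07), Ppp1r15a by 0.45 ± 0.075 (1.30e-04), Eif2b2, of the exchange factor, by 0.39 ± 0.073 (5.94e-04) and Eif2s1, the subunit that is phosphorylated, by 0.37 ± 0.089 (0.00624). In normal mice Eif2b2 also lay above 0 (0.236 ± 0.074, 0.122). The difference of the effects passed for Ppp1r15b (0.50 ± 0.079, 1.63e-04) and Eif2s1 (0.48 ± 0.13, 0.0237). It did not pass for Ppp1r15a (0.32 ± 0.105, 0.0808) or Eif2b2 (0.155 ± 0.104, 0.481). Among 12 genes of amino acid sensing by mTORC1, 6 lay below 0 on day 1 and 2 fell, Sesn1 (-0.999 ± 0.230, 0.0189) and Rptor, the scaffold of mTORC1 (-0.26 ± 0.069, 0.0255). Both rose late against early in disrupted mice, Sesn1 by 2.01 ± 0.23 (1.62e-05) and Rptor by 0.37 ± 0.069 (4.85e-04), while Sesn3 fell by 0.475 ± 0.10 (0.00190). The member of the same sestrin family in the module, Sesn2, had -0.245 ± 0.191 on day 1 and 0.033 ± 0.193 late against early, with adjusted p values of 0.554 and 0.934. In normal mice late against early, 0 of the 12 sensing genes passed, but Sesn1 also lay above 0 there, highest of the 12 at 0.873. Within normal males 1 of them rose (1.38% of all genes). The difference of the effects passed for 2 of the 12, and Sesn1 had the highest value for it, 1.133.

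**Figure D5:**
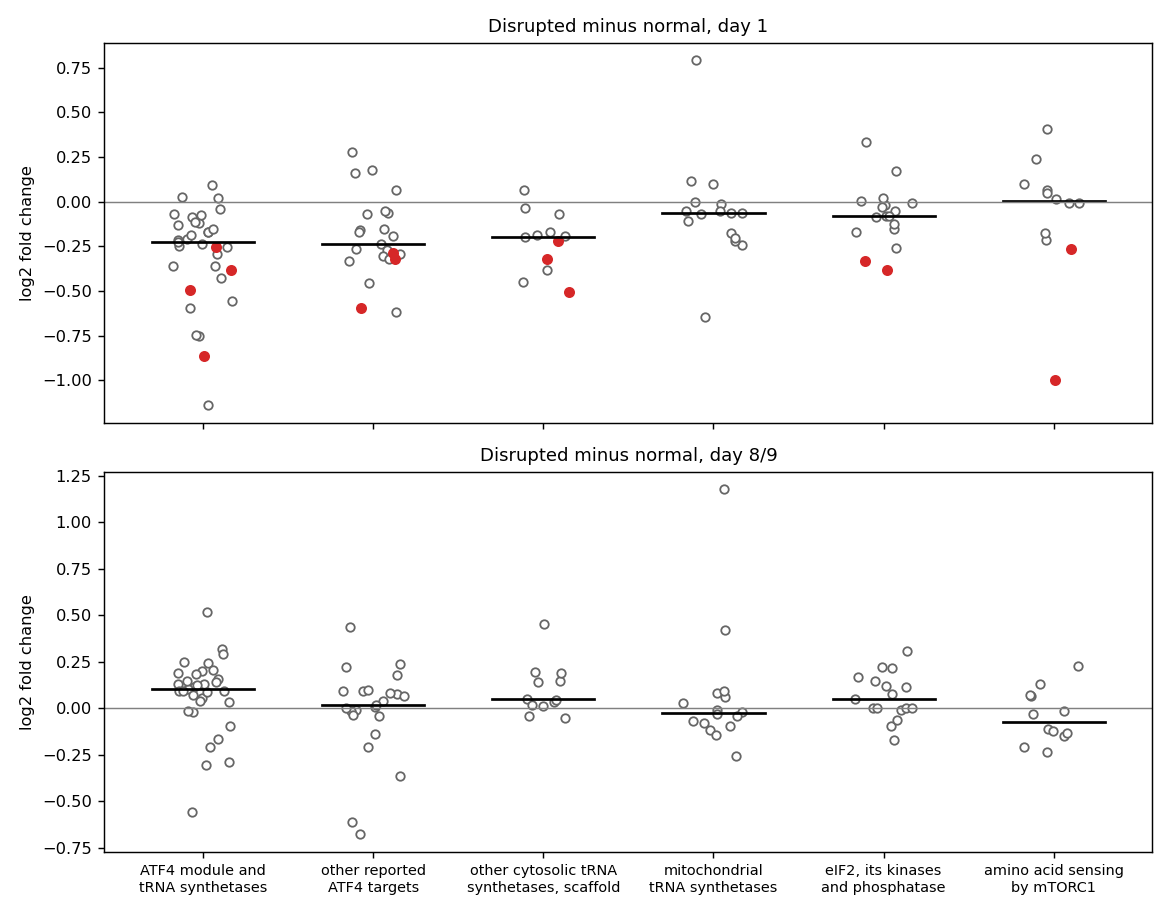
Log2 fold change of disrupted minus normal mice on day 1 (top) and on day 8 or 9 (bottom) for the module and 5 further lists; each point is a gene, filled red points have an adjusted p under 0.05, and black lines are medians. The medians of the module, the other ATF4 targets and the other cytosolic synthetases on day 1 were -0.225, -0.234 and -0.195, against -0.064 for mitochondrial synthetases and 0.006 for amino acid sensing.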

How the data were processed

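RNA of 24 pancreases was measured by RNA-seq after column extraction and Illumina TruSeq library preparation, per the labels' protocols. The authors deposited 1 table of RSEM expected counts, not normalized, with 1 column per mouse. The submitters' processing notes name the build GRCm38.p5 and, with no role or order, STAR 2.5.3a, RSEM, edgeR 3.28.0 and bcl2fastq 2.20. Sources used here do not give the annotation or the strand setting of the counting. An expected count shares reads that fit several genes among them. Of the values 7.97% were not whole (tolerance 0.005), among the module mainly those of Phgdh and Slc7a11, and all were rounded. The deposited values of 51912 genes were named by Ensembl identifier from GENCODE M21, which matched 51719.

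Genes were filtered with filterByExpr over the 8 groups, leaving 14000. Libraries were scaled by TMM (factors 0.943 to 1.12). edgeR 4.0.16 (R 4.3.3) was run with its robust quasi-likelihood test on 8 group means over all 24 mice. Contrasts weighted males and females equally, and p values were adjusted by Benjamini-Hochberg over all 14000 genes, with a threshold of 0.05. SE is that of the log2 fold change from the same fit. CPM use TMM-scaled libraries, and log2 CPM a prior count of 2. The common biological coefficient of variation was 0.13, which limits precision more than depth does for most members. The script was tested on simulated counts. Since the design text counts mice in each group, every library was taken as 1 animal.

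Replicate numbers were shared between groups. The labels do not say that they mark a litter or batch, so the mice were not treated as paired. Over 84 pairs of same-numbered mice, deviations from the group means correlated at -0.209 to 0.401 (median 0.008), and 15 were over 0.1.

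The members, lists and tests were chosen with earlier results of these data known. Full values are given for members called in a condition effect, in the difference of the effects or in disrupted mice late against early, and for Atf4, Ddit3 and Asns. Of the further lists, at most 4 called genes per comparison with the smallest p are named. Where other members or listed genes are named, they were chosen after their values were seen. Alternatives were upper quartile scaling, no filter, a replicate block, leaving out mice rich in lymphocyte RNA (4 of them chosen after seeing the data), each sex alone, only the mice compared, DESeq2 1.42.0 and each mouse left out in turn. Promoter sequence is from RefSeq on GRCm38.p6.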

Additional observations from a re-analysis of the deposited data

Results flagged for a closer look

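In 3 of 40 sets of 6 mice, 1 mouse stood apart from the rest by Dixon's criterion, which chance meets in about 5% of sets. Ddit3 was 3.798 CPM in normal early male 1, against 2.56 CPM in the next highest normal early mouse. Ddit3 was 2.428 CPM in normal late female 3, against 1.848 CPM in the next. Cars was 14.45 CPM in normal early female 3, the lowest normal early mouse, against 17.72 CPM in the next lowest. The first 2 of these mice were highest in their group of 3 for 28 and 29 of the 33 genes and the last was lowest for 30.

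The condition effect differed between the late and the early time point by a test of that difference for Slc7a5 (1.158 on the log2 scale), Mthfd2 (0.584) and Sars (0.324).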

How the results depend on the processing

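The limits are 3 mice per group, several calls close to the threshold, and an unknown strand setting. Numbers of called genes of the 33 are 4 (disrupted against normal, early), 0 (late), 3 (difference of these), 7 (late against early, disrupted), 0 (the same, normal), 0 (male against female, early) and 0 for both sex differences. The replicate block gave 4, 0, 3, 7, 0, 0, 0 and 0, and changed no count. Of 24 mice, 12 correlated best with their own number. Whether the numbers mark a pairing cannot be told from these values. Upper quartile scaling gave the same counts. Without 2 (disrupted early female 1 and disrupted late female 1) or all 4 lymphocyte-rich mice they were 4 and 4 early, 6 and 5 late against early in disrupted mice and 3 and 2 for the difference. Without the filter 1 gene passed in normal mice late against early and 1 for sex. With only the mice compared in the fit, 13 passed late against early in disrupted mice (1 of them, Nupr1, lower) and 1 for sex. With DESeq2, 1 passed late, 11 late against early in disrupted mice, 1 in normal mice and 2 for sex. In males alone 0 passed early, 0 for the difference and 0 late against early in disrupted mice; in females alone 0, 0 and 6. Fewer mice enter those contrasts. Shares of all genes are given above for the main fit and its contrasts within 1 sex. How many of all genes passed under the other settings, or with 1 mouse left out, is not given here. Counts of the module in those fits therefore have no share beside them, and whether they moved with all genes was not tested.

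With each of 24 mice left out in turn, counts ran from 2 to 7 early, 0 to 1 late, 1 to 6 for the difference, 5 to 12 late against early in disrupted and 0 to 1 in normal mice, 0 to 2 for sex, and stayed at 0 for both sex differences. The late call was Nupr1, without normal late female 1; those in normal mice were Ddit3 without normal early male 3 and Pck2 without normal late female 3.

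For the 10 genes described in full, 14 of 50 results were called. Over 33 alternatives, 1519 values kept direction and call, 19 gained and 66 lost a call and 36 turned in sign, each for a value that had not passed. The cause was not tested. In normal mice late against early, values turned to -0.006 for Mthfd2 with upper quartile scaling; to -0.011 for Chac1, -0.039 for Mthfd2 and -0.012 for Cars without 4 lymphocyte-rich mice; to -0.034 for Mthfd2 in males; and to 0.035 for Atf4, 0.018 for Asns, -0.447 for Chac1 and 0.018 for Yars in females. In males, Chac1 was 0.005 early, -0.129 late and -0.134 for the difference, Atf4 -0.08 late, and Ddit3 -0.227 and Pck2 -0.266 late against early in disrupted mice. In females Asns was -0.041 late. With single mice left out, late values ran from -0.008 to 0.056 for Asns, -0.11 to 0.094 for Pck2 and -0.01 to 0.158 for Mthfd2; late against early in disrupted mice, Ddit3 ran from -0.033 to 0.142; and in normal mice Asns ran from -0.073 to 0.006, Chac1 from -0.128 to 0.297, Mthfd2 from -0.056 to 0.112, Cars from -0.014 to 0.089 and Yars from -0.099 to 0.011.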

Other observations

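Nupr1 and Wars went against most of the module at the late time point. Nupr1 had 556.9, 780.2 and 1136 CPM in the lowest, median and highest normal late mouse and 460.7, 532 and 655 CPM in disrupted late mice, and 4 disrupted mice lay below every normal one. Wars had 88.6, 121.5 and 156 CPM in normal late and 60.5, 95.5 and 147 CPM in disrupted late mice, with wide overlap. Wars is also known as a target of interferon. Neither passed edgeR's quasi-likelihood test (adjusted p = 0.113 and 0.279).

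Outside the module, Mars2, the mitochondrial methionyl-tRNA synthetase gene, fell in normal mice late against early by 0.61 ± 0.14 on the log2 scale (adjusted p = 0.0283). Eif2s3x, the X-linked gene of the gamma subunit of eIF2, was lower in males than in females on day 1 (log2 difference, male minus female, -0.35 ± 0.057, adjusted p = 0.00182).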
